A study of Mus musculus with 12 samples.

Results

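The genes described here are the solute carriers (Slc and Slco genes) detected at a fixed brightness in mouse liver. They were taken from the array's gene symbols by name, leaving out the mitochondrial Slc25 family, the zinc carriers of the Slc30 and Slc39 families, and Slc37a4. A gene entered when its brightest probe had a mean linear intensity of 1000 or more over all 12 arrays. Of 283 carriers named on the array, 162 reached that level and 121 did not, among 17778 genes with a symbol. The genes were thus selected on their measured intensity, through a mean over all groups and not through any difference between groups. Just inside the limit lay Slc4a11, Slc9a3, Slc17a6, Slc6a2 and Slc8a1, with mean intensities between 1001 and 1068. Just outside it lay Slc10a5, Slc24a2, Slc26a6, Slco1a6 and Slc6a7, with mean intensities between 880.2 and 999.8.

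Solute carriers are membrane proteins that move sugars, amino acids, ions, vitamins, nucleosides, bile acids and drugs across a membrane without splitting ATP themselves. They move a solute down its own gradient, or couple it to the flow of sodium, protons or another solute. Hepatocytes, the main cells of the liver, use carriers on their blood side to exchange glucose, bile acids, amino acids and organic anions with the blood, while bile acids leave for the bile mainly through ATP-driven pumps. The working name of the set, plasma membrane carriers, goes beyond what the symbols select. Of the 162 genes, 108 were assigned to the plasma membrane and 15 to no settled place. Another 35 were assigned to the Golgi, endoplasmic reticulum, lysosome, mitochondrion or other internal membranes. The assignment went by family, with exceptions by gene, so single genes may lie elsewhere. Slc6a17, for example, was counted with the plasma membrane but is known from synaptic vesicles. The remaining 4 (Slc9a3r1, Slc9a3r2, Slc7a6os and Slc4a1ap) carry the prefix but are adaptor or unrelated proteins. By substrate, 33 genes serve amino acids and peptides, 27 inorganic ions, and 20 organic anions and cations. A further 15 carry nucleotide sugars or are relatives of such carriers, 13 serve vitamins, choline and cofactors, and 12 sugars. Bile acids and metals have 5 genes each. Carboxylates, fatty acids and nucleosides have 4 each, acetyl-CoA and sugar phosphates 3, and 13 genes have another or an unsettled substrate. The set also holds carriers best known from neurons, such as Slc17a7 (vesicular glutamate), Slc6a3 (dopamine) and Slc8a2 (sodium-calcium exchange), whose probes passed the limit. These 3 were picked out after their values were seen.

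Liver RNA came from STZ mice that received MENS, STZ mice without it, and control mice with no treatment, all labelled 8 weeks old. Every group had 2 samples, and every sample was hybridised to 2 arrays. STZ is streptozotocin, a toxin of the insulin-producing beta cells that is used to make mice diabetic. MENS is a name the labels leave unexplained. It was delivered through a printed circuit board for 1 h per day, 5 days per week, over 6 weeks. The labels name no strain, sex or STZ dose. Nor do they tie a sample to a single animal, so the spread behind every p-value here, that between samples, may be technical.

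Levels are log2(intensity + 50), averaged over the 2 arrays of a sample, and differences are on the same scale, with the standard error of the limma fit. Levels of different probes were not set against each other. The median SD between samples of a group, pooled over the groups, was 0.24 for the 162 genes and 0.17 for all genes. Within single groups the median SD of the 162 genes was 0.22 in STZ+MENS, 0.12 in STZ and 0.14 in control. Hepatocyte markers were present, with 7 of 8 measured and all 7 at an intensity of 1000 or more. None of the 7 passed an unadjusted p of 0.05 between STZ and control, and 2 were lower in STZ+MENS than in STZ, Cps1 at -1.27 ± 0.48 (unadjusted p = 0.0369) and Tat at -1.17 ± 0.23 (unadjusted p = 0.00208). Both were also below control in STZ+MENS, at -1.47 ± 0.48 and -1.29 ± 0.23. The other 5 differed between STZ+MENS and STZ by -0.13 to 0.28. Of all genes, 12.8% were lower in STZ+MENS than in STZ at an unadjusted p under 0.05. Of the 8 cholangiocyte (bile duct cell) markers, 3 (Krt19, Tspan8 and Anxa13) were higher in STZ than in control at an unadjusted p under 0.05, beside 8.47% of all genes. These 3 had mean intensities of 688.7, 686.8 and 696.8, below the limit of 1000 set for members. Only 2 of the 8, Krt7 and Spp1, were at 1000 or more. Krt7, at 0.32 ± 0.26, and Epcam, Sox9 and Cftr, at 0.03 to 0.10, did not pass. The summed intensity of the 8 was 22876 and 18040 in STZ+MENS, 25552 and 19962 in STZ, and 16691 and 16285 in control. Most of this sum came from Spp1 (mean intensity 14029), which differed between STZ and control by 0.36 ± 0.29 and did not pass. Only 2 of 6 erythroid markers were measured, and their sum differed widely between samples of a group. It was 104836 and 9330 in STZ+MENS, 32621 and 55363 in STZ, and 79641 and 95699 in control. Nearly all of it came from Alas2 (mean intensity 62301), beside 614 for Slc4a1. Of the 5 measured pancreatic acinar markers, 2 were lower and 1 higher in STZ than in control at an unadjusted p under 0.05. Among all genes the shares were 8.5% and 8.47%. The sums of the 5 markers were 23524 and 19569 in STZ against 42389 and 42452 in control. Most of the sum came from Cela1 (mean intensity 23123.5), which was lower by -1.13 ± 0.22. The other lower marker, Cela2a, differed by -0.46 ± 0.16, while Cpa1 and Ctrb1 differed by -0.03 ± 0.17 and -0.13 ± 0.18. The 1 higher marker, Pnlip, had a mean intensity of 27.4, under the offset of 50. The part of these other cell types in the carrier results was not tested, and in whole liver RNA fewer cells of a type and less RNA per cell cannot be told apart.

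The promoters of 4 genes are shown because these genes had the smallest unadjusted p between STZ and control among those held by the promoter table, or, for Slc13a2, because it lies next to Slc46a1 and differed in the same directions. Each line gives the 250 bases before the gene's first listed start, 5′ to 3′ on the gene's strand, from RefSeq on GRCm38.p6. Capitals mark matches to AGGTCA, the core of many nuclear receptor sites, to GTTAAT, which is part of the HNF1 motif, or to GGGCGG, the GC box, on either strand, and to TATANA, which resembles the TATA box, on the gene's strand. Slc46a1 lies at chr11:78465451-78465700 on the plus strand, Slc13a2 at chr11:78422235-78422484 on the minus strand, Slco1a4 at chr6:141856221-141856470 on the minus strand, and Slc44a1, of 2 listed starts, at chr4:53440163-53440412 on the plus strand.
Slc46a1: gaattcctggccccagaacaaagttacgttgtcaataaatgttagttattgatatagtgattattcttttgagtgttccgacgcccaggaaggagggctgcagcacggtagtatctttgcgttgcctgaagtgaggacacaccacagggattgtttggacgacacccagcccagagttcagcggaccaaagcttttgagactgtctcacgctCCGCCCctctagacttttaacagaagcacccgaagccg
Slc13a2: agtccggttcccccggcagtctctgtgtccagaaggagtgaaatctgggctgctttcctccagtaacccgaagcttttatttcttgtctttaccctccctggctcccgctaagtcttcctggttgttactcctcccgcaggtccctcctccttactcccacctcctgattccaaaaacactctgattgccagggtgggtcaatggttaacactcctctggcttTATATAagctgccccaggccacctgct
Slco1a4: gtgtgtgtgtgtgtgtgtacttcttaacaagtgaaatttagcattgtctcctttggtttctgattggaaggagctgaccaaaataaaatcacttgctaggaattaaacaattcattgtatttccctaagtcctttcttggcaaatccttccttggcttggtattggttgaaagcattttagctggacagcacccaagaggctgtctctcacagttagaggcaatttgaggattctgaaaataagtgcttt
Slc44a1: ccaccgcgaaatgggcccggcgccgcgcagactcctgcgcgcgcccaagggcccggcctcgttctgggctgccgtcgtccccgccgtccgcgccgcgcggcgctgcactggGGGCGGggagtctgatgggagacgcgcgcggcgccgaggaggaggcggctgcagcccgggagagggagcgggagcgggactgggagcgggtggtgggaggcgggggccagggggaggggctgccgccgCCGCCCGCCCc

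The Slc46a1 window held 1 GC box on the reverse strand and no TATA-like match, and the Slc13a2 window held 1 TATA-like match and no GC box. The Slco1a4 window held none of the 4 motifs. The Slc44a1 window held 3 GC boxes, 2 of which overlap, at a GC content of 81.2%, against 39.2% for Slco1a4, 49.6% for Slc46a1 and 53.6% for Slc13a2. Of the 162 genes, 124 were in the table. GC boxes were found in 51.6% of these 124 windows and in 32.9% of all 27025 windows of the same length, TATA-like matches in 8.06% and 17.3%, AGGTCA in 11.3% and 13.8%, and GTTAAT in 4.84% and 6.52%. The 27025 windows include genes of any intensity, while the members had passed the intensity limit. Windows of genes of like intensity were not counted apart, so these shares do not set carriers against comparable genes. A match is a run of letters and not a measured site.

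STZ livers were first set against control livers. Slc46a1, which carries folate into cells together with protons, was 3.4-fold lower in STZ, and Slc44a1, a choline carrier, was 2.72-fold lower. Slco1a4, a carrier of bile acids and other organic anions, was 3.67-fold higher, and Slc47a1, which extrudes organic cations, was 2.35-fold higher. No member passed the adjusted threshold of 0.05 over all genes (limma, Benjamini-Hochberg), at which 1 of 17778 genes was called (0.00562%); the smallest adjusted p of a member was 0.0676, for Slc46a1. At an unadjusted p under 0.05, 17 members were higher and 21 lower, against 8.47% and 8.5% of all genes. In either direction this was 23.5% of the members, against 17% of all genes and 19.6% of the 9731 genes of the same intensity limit. The shares of all genes and of genes of the same limit are also the background for the counts by substrate group below. The 2 STZ samples lay above both control samples for 38 members and below both for 60, against 23.9% and 28.2% of all genes. The median difference of the members was -0.04, against -0.02 for all genes.

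**Figure D1:**
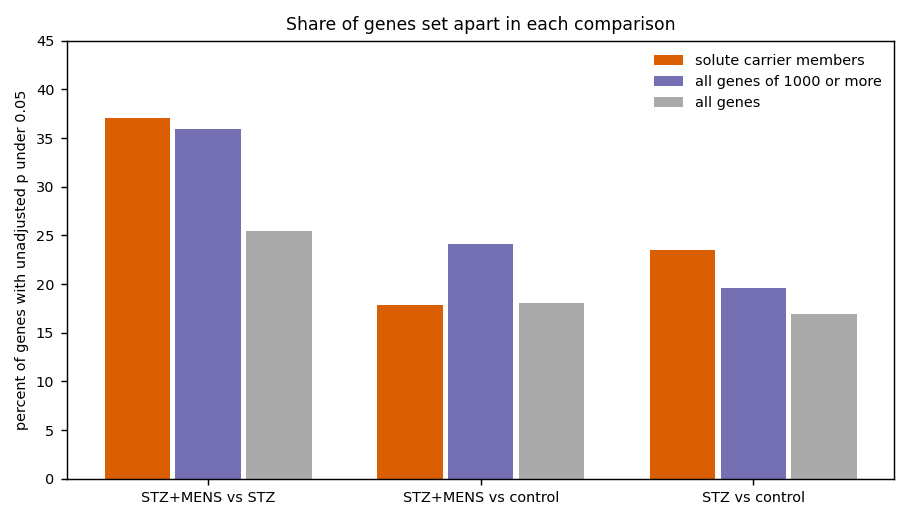
Percent of genes with an unadjusted limma p under 0.05 in either direction, for the 162 solute carriers, for the 9731 genes with a mean intensity of 1000 or more, and for all 17778 genes, in each of the 3 comparisons. The carriers' bar reaches 37.0% for STZ+MENS against STZ, beside 36% of genes of like intensity, and 23.5% for STZ against control, beside 19.6%.

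Carriers of vitamins, choline and cofactors included 2 members higher and 3 lower in STZ at an unadjusted p under 0.05, of 13. Slc46a1 stood at 13.75 and 13.55 in STZ+MENS, 12.51 and 12.46 in STZ, and 13.98 and 14.51 in control. The STZ samples were below all others. The STZ minus control difference was -1.76 ± 0.21 (unadjusted p = 0.000115). Slc19a1, the reduced folate carrier, which exchanges folates for organic anions, went the other way: it stood at 9.95 and 10.43 in STZ+MENS, 11.30 and 11.23 in STZ, and 10.44 and 10.33 in control. Both STZ samples lay above all others, with a difference of 0.88 ± 0.19 from control (unadjusted p = 0.00342, adjusted p over all genes above 0.05). The folate carriers Slc46a1 and Slc19a1 thus had opposite signs. The thiamine carriers of the same family, Slc19a2 and Slc19a3, differed by -0.33 ± 0.18 and -0.14 ± 0.14, neither past an unadjusted p of 0.05.

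Of the 4 choline-carrier family members, Slc44a1 stood at 11.16 and 10.80 in STZ+MENS, 10.25 and 10.47 in STZ, and 11.97 and 11.63 in control. The 3 groups did not overlap. Its STZ minus control difference was -1.45 ± 0.20 (unadjusted p = 0.00032). Averaging its second, much dimmer probe (mean intensity 189.5, difference -0.19 ± 0.13) with the first moved the difference to -0.82. Slc44a2 was higher, by 0.40 ± 0.16 (unadjusted p = 0.0444), while Slc44a3 at -0.30 ± 0.35 and Slc44a4 at -0.03 ± 0.14 did not pass. Slc23a1, a sodium-coupled vitamin C carrier, was lower, at -0.62 ± 0.21 (unadjusted p = 0.025), and its relative Slc23a2 differed by 0.18 ± 0.18, which did not pass.

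Among the 5 bile acid carriers, 1 was higher and none lower in STZ at an unadjusted p under 0.05. Slco1a4 stood at 14.47 and 15.39 in STZ+MENS, 15.98 and 15.71 in STZ, and 14.01 and 13.93 in control. The STZ samples were highest and the control samples lowest, and the groups did not overlap. The difference between STZ and control was 1.88 ± 0.30 (unadjusted p = 0.000715). Slc10a1, the sodium-coupled uptake carrier of conjugated bile acids, differed by -0.51 ± 0.30, Slco1a1 by -0.26 ± 0.26 and Slco1b2 by -0.15 ± 0.15, none past an unadjusted p of 0.05. Slc10a2, best known from the ileum and bile duct, differed by -0.69 ± 0.39.

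Organic anion and cation carriers had 2 members higher and 4 lower in STZ, of 20. Slc47a1 stood at 11.81 and 12.15 in STZ+MENS, 12.51 and 12.44 in STZ, and 11.21 and 11.28 in control. Again the STZ samples were highest and the control samples lowest, with a difference of 1.23 ± 0.16 (unadjusted p = 0.000239). Slc22a7, which takes up organic anions at the blood side of hepatocytes, stood at 14.77 and 14.51 in STZ+MENS, 12.81 and 13.30 in STZ, and 14.02 and 14.54 in control. Its STZ samples lay below all others, with a difference of -1.22 ± 0.25 (unadjusted p = 0.0027). Slc22a12, a urate exchanger, was also lower, at -0.66 ± 0.16 (unadjusted p = 0.00525), as was Slc22a23, whose substrate is not known, at -0.92 ± 0.25 (unadjusted p = 0.0103). Slc22a18 was higher, at 0.39 ± 0.14 (unadjusted p = 0.0334).

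Amino acid and peptide carriers had 2 members higher and 5 lower in STZ at an unadjusted p under 0.05, with 26 of 33 not passing. Slc7a7, the light chain of an exchanger of cationic for neutral amino acids, stood at 10.80 and 10.88 in STZ+MENS, 10.14 and 9.94 in STZ, and 11.62 and 10.86 in control. The STZ samples were lowest, and the difference was -1.20 ± 0.26 (unadjusted p = 0.00335). Its heavy chain Slc3a2 differed by -0.28 ± 0.31 at its brightest probe and by -0.92 ± 0.20 at its second, dimmer probe. Slc7a2, which carries arginine and other cationic amino acids, was higher by 0.47 ± 0.16 (unadjusted p = 0.025). The other higher member was Slc1a2, a glutamate carrier, at 1.08 ± 0.41 (unadjusted p = 0.0388), with a second probe at 1.24 ± 0.39. Slc6a17, a carrier of neutral amino acids known from synaptic vesicles, was lower at -0.63 ± 0.16 (unadjusted p = 0.00749). The glutamine and alanine carriers Slc38a2, Slc38a3 and Slc38a4 differed by 0.17 ± 0.15, -0.39 ± 0.16 and 0.14 ± 0.13, none past an unadjusted p of 0.05.

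**Figure D2:**
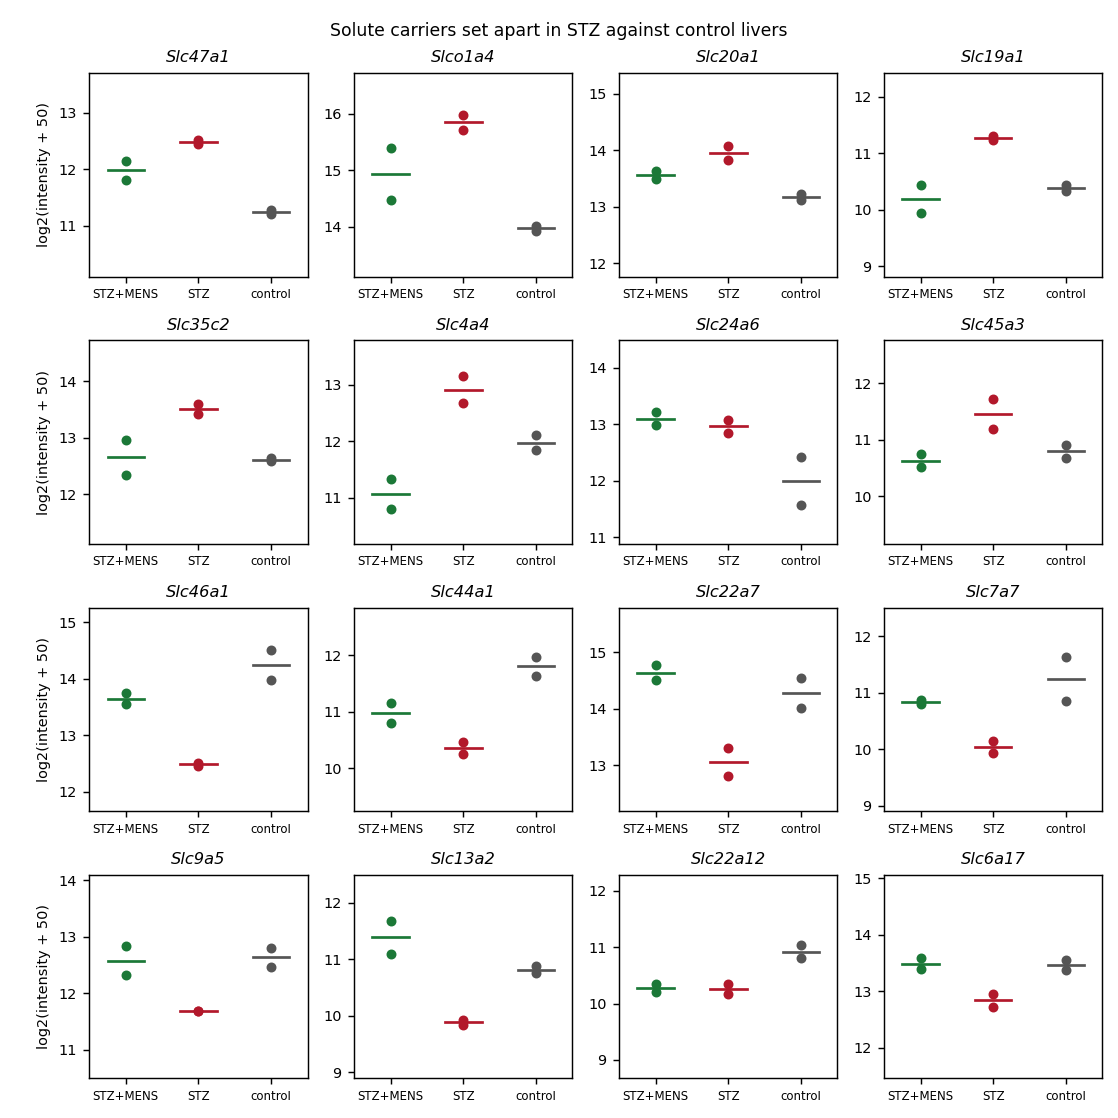
Levels of the 8 members with the smallest p that were higher (upper 2 rows) and the 8 that were lower (lower 2 rows) in STZ than in control, as log2(intensity + 50); each point is 1 sample, the mean of its 2 arrays, and each bar the group mean. In every panel the 2 STZ samples lie outside the control samples; Slc46a1, for example, sits at 12.51 and 12.46 in STZ and 13.98 and 14.51 in control.

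Among the sugar carriers, Slc2a2, the glucose carrier of the hepatocyte surface, stood at 15.63 and 14.83 in STZ+MENS, 15.40 and 15.27 in STZ, and 14.89 and 14.99 in control. Both STZ samples lay above both control samples, but the difference of 0.40 ± 0.26 did not pass (unadjusted p = 0.183), and the STZ+MENS samples spanned the other groups. Of the 12 sugar carriers, none was higher and 2 were lower at an unadjusted p under 0.05: Slc2a5, the fructose carrier, at -0.71 ± 0.21 (unadjusted p = 0.0137) and Slc2a8, a glucose carrier of internal membranes, at -0.45 ± 0.17 (unadjusted p = 0.0367). Slc2a1, the widely expressed glucose carrier, differed by 0.54 ± 0.23 and did not pass (unadjusted p = 0.0563). The insulin-responsive Slc2a4 differed by -0.06 ± 0.14.

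Inorganic ion carriers had 5 members higher and 1 lower in STZ, of 27. Slc20a1, a sodium-phosphate carrier, stood at 13.63 and 13.49 in STZ+MENS, 13.82 and 14.08 in STZ, and 13.22 and 13.12 in control. The groups did not overlap, with STZ highest. Its difference was 0.78 ± 0.15 (unadjusted p = 0.00214). Slc4a4, which moves sodium with bicarbonate, was higher by 0.93 ± 0.25 (unadjusted p = 0.00946). Slc24a6, now named Slc8b1 and known as a sodium-calcium exchanger of mitochondria, was higher by 0.97 ± 0.29 (unadjusted p = 0.0152). Leaving out control sample 1 moved that difference to 0.54. The 1 lower member was Slc9a5, a sodium-proton exchanger, at -0.95 ± 0.22 (unadjusted p = 0.00425).

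Among the other groups, the carboxylate carriers split. Slc13a2, which couples sodium to dicarboxylates such as succinate, was lower in STZ at -0.93 ± 0.21 (unadjusted p = 0.00447), and the citrate carrier Slc13a5 was higher at 1.10 ± 0.38 (unadjusted p = 0.0263). The Slc13a5 difference ranged from 0.50 without STZ sample 2 to 1.704 without STZ sample 1. Slc29a1, the equilibrative nucleoside carrier, was lower at -0.74 ± 0.22 (unadjusted p = 0.0144), and -0.46 without STZ sample 2. Slc35c2, a Golgi carrier linked to fucosylation, was higher at 0.90 ± 0.22 (unadjusted p = 0.00678), and Slc45a3 at 0.66 ± 0.22 (unadjusted p = 0.0226), or 0.39 without STZ sample 1. The fatty acid carriers Slc27a1, Slc27a2, Slc27a4 and Slc27a5 did not pass, with differences between -0.44 and 0.03. Nor did the iron exporter Slc40a1, at -0.03 ± 0.32.

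STZ+MENS livers were then set against STZ livers. Slc22a7 was 3.0-fold higher with MENS and Slc1a7, a glutamate carrier, 2.24-fold, while Slc4a4 was 3.58-fold and Slc12a2 2.33-fold lower. Slc13a2 was 2.84-fold higher, and Slc35a3 and Slc41a2 were 3.44-fold and 3.38-fold lower, but these 3 had a mean under the intensity limit in the group where they were dimmer and entered the set through the others. No member and no other gene passed the adjusted threshold (0 of 17778, or 0%, by limma), and the smallest adjusted p of a member was 0.0596. At an unadjusted p under 0.05, 31 members were higher and 29 lower, against 12.6% and 12.8% of all genes. In either direction this was 37.0% of the members, against 25.4% of all genes and 36% of the genes of the same intensity limit, so the share was near that of genes of like intensity. The shares of all genes and of genes of like intensity are also the background for the counts by substrate group below. The STZ+MENS samples lay above both STZ samples for 59 members and below both for 40, against 34% and 23.9% of all genes. The median difference was 0.11 over the members and 0.06 over all genes. These differences use the same STZ samples as the comparison with control, so the signs in the 2 comparisons are not independent.

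When the fit and the adjustment were restricted to genes with a mean intensity of 1000 or more, 493 of them (5.07%) passed, and 13 of the members were among these. The 13 were Slc10a1, Slc12a2, Slc13a2, Slc19a1, Slc1a7, Slc22a7, Slc31a2, Slc35a3, Slc35f5, Slc41a2, Slc46a1, Slc4a4 and Slc4a9, with adjusted p from 0.0429 to 0.0446. Of these, Slc13a2, Slc35a3 and Slc41a2 met the filter only through the groups in which they were brighter, so their passing is no support. Slc10a1 passed at its brightest probe, and its second probe went the other way. In the same setting 1 member, Slc46a1, passed for STZ against control (adjusted p = 0.0473), where 23 of these genes (0.236%) did.

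Inorganic ion carriers had 6 members higher and 7 lower with MENS at an unadjusted p under 0.05, of 27. Slc4a4 stood at 10.80 and 11.34 in STZ+MENS, 13.15 and 12.67 in STZ, and 11.85 and 12.10 in control. The 3 groups did not overlap, with STZ+MENS lowest and STZ highest. The STZ+MENS minus STZ difference was -1.84 ± 0.25 (unadjusted p = 0.000293). The bicarbonate carrier Slc4a9 was lower too, at -0.88 ± 0.16 (unadjusted p = 0.00116), and the chloride-bicarbonate exchanger Slc4a2 was higher, at 0.73 ± 0.21 (unadjusted p = 0.0118). The Slc4a2 difference was 0.46 without STZ sample 1. The family members Slc4a8 and Slc4a11 differed by 0.04 ± 0.14 and 0.13 ± 0.14.

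Slc12a2, which carries sodium, potassium and chloride together, stood at 10.44 and 10.31 in STZ+MENS, 11.67 and 11.52 in STZ, and 11.87 and 11.39 in control. Both STZ+MENS samples lay below the 4 others, by -1.22 ± 0.19 from STZ (unadjusted p = 0.000676). Other family members went the other way: Slc12a7, a potassium-chloride carrier, was higher by 0.87 ± 0.21 (unadjusted p = 0.0061) and Slc12a9 by 0.93 ± 0.22 (unadjusted p = 0.00467). Slc12a3 and Slc12a4 differed by 0.22 ± 0.35 and -0.13 ± 0.13. The magnesium carriers differed in sign as well. Slc41a2 stood at 9.43 and 9.83 in STZ+MENS, 11.45 and 11.32 in STZ, and 11.09 and 10.39 in control, a difference of -1.76 ± 0.27 from STZ (unadjusted p = 0.0005). Slc41a3 was lower, at -0.61 ± 0.24 (unadjusted p = 0.0435), while Slc41a1 was higher at 0.71 ± 0.26 (unadjusted p = 0.0343).

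Carriers of organic anions and cations had 3 members higher and 2 lower. Slc22a7, whose sample values are given above, was higher by 1.58 ± 0.25 (unadjusted p = 0.000697), and the urate and glucose carrier Slc2a9 by 0.85 ± 0.23 (unadjusted p = 0.00918). Slc17a5, which exports sialic acid from lysosomes, stood at 11.96 and 11.95 in STZ+MENS, 12.60 and 12.59 in STZ, and 12.80 and 12.73 in control. Its STZ+MENS samples were lowest, at -0.64 ± 0.13 from STZ (unadjusted p = 0.00233). Slc47a1 was lower with MENS, at -0.50 ± 0.16 (unadjusted p = 0.0216), and at -0.33 without STZ+MENS sample 1.

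Among the bile acid carriers, Slc10a1 stood at 14.21 and 13.43 in STZ+MENS, 12.23 and 12.09 in STZ, and 12.40 and 12.94 in control at its brightest probe. Both STZ+MENS samples were highest, with a difference of 1.67 ± 0.30 from STZ (unadjusted p = 0.00133). The gene's second probe, at a mean intensity of 6447, went the other way, at -0.66 ± 0.20 (unadjusted p = 0.0157), and the mean of both probes gave 0.50. The direction for Slc10a1 therefore depends on the probe. Slco1a4 was lower with MENS, at -0.92 ± 0.30 (unadjusted p = 0.0217), and at -0.46 without STZ+MENS sample 1. Slco1a1 differed by -0.15 ± 0.26 at its brightest probe and by -0.72 ± 0.15 at its second (unadjusted p = 0.00245). Slco1b2 differed by -0.02 ± 0.15.

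**Figure D3:**
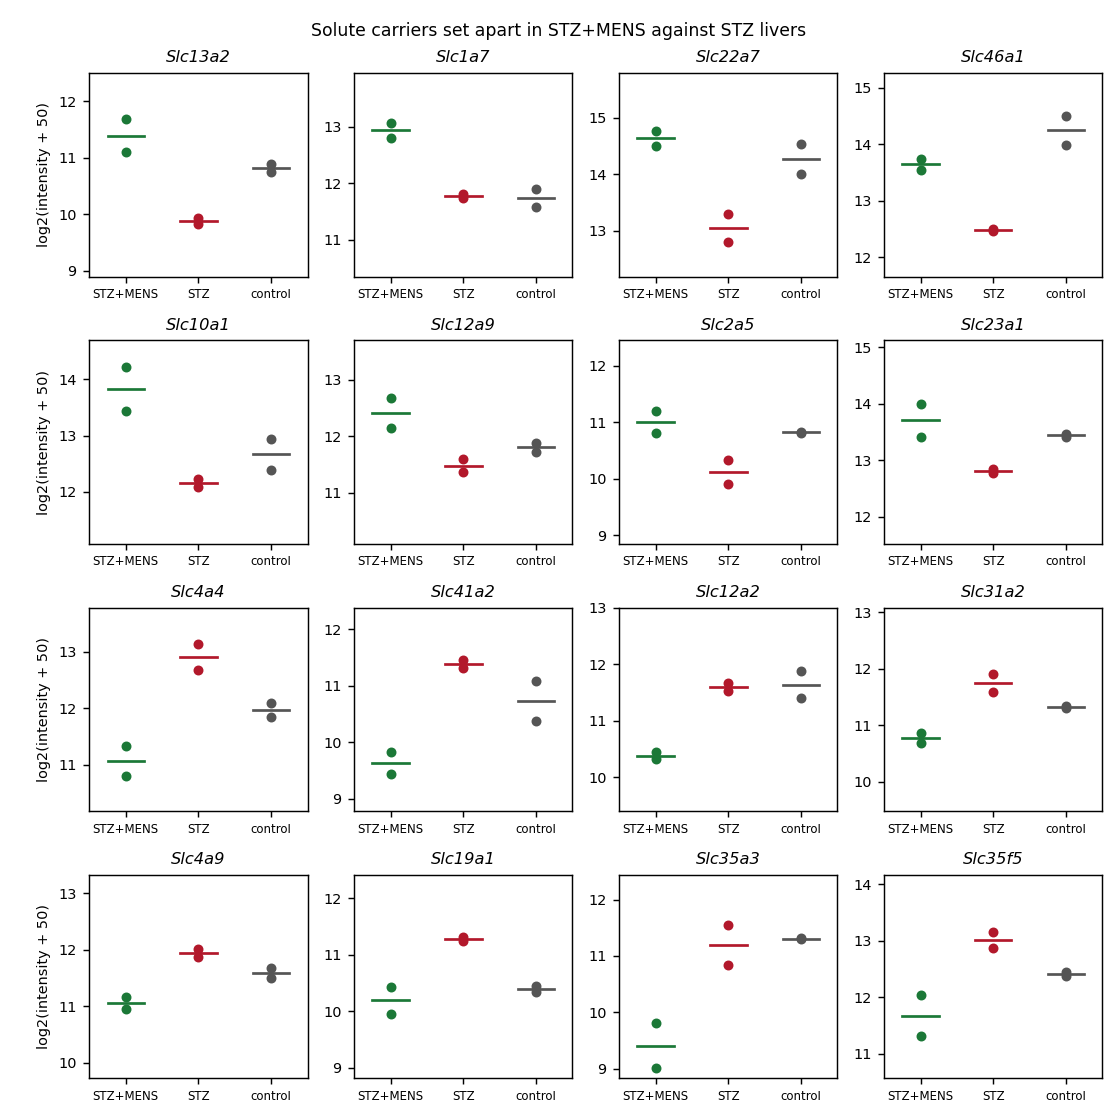
Levels of the 8 members with the smallest p that were higher (upper 2 rows) and the 8 that were lower (lower 2 rows) in STZ+MENS than in STZ, as log2(intensity + 50); points are samples, each the mean of 2 arrays, and bars are group means. Slc13a2 and Slc22a7 lie lowest in the STZ samples, while Slc12a2 and Slc35a3 lie lowest in the STZ+MENS samples with STZ and control close together.

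Amino acid carriers had 8 members higher and 4 lower with MENS, of 33. Slc1a7 stood at 13.06 and 12.81 in STZ+MENS, 11.74 and 11.81 in STZ, and 11.59 and 11.89 in control. The STZ+MENS samples stood above the 4 others, whose values overlapped, and the difference from STZ was 1.16 ± 0.17 (unadjusted p = 0.000456). Slc1a2, another glutamate carrier, was lower, at -1.69 ± 0.41 (unadjusted p = 0.00598), with a second probe at -1.44 ± 0.39. From control the STZ+MENS samples differed in Slc1a2 by -0.61 ± 0.41, which did not pass. The remaining family members, the neutral amino acid carriers Slc1a4 and Slc1a5, differed by -0.61 ± 0.29 and 0.47 ± 0.23 and did not pass. Slc16a10, which carries aromatic amino acids, was lower at -1.14 ± 0.26 (unadjusted p = 0.00404), and its other 2 probes had the same sign. Without STZ+MENS sample 1 the Slc16a10 difference was -0.75. Slc38a2 was lower at -0.39 ± 0.15 (unadjusted p = 0.0358), its neighbour Slc38a4 differed by -0.31 ± 0.13 (unadjusted p = 0.0508), and Slc38a3 by 0.15 ± 0.16. Slc7a7 was higher by 0.80 ± 0.26 (unadjusted p = 0.0208), and so was Slc7a5, a light chain for large neutral amino acids, by 0.56 ± 0.18 (unadjusted p = 0.0206).

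Slc46a1 was higher with MENS than in STZ alone, by 1.17 ± 0.21 (unadjusted p = 0.00115), and Slc19a1 was lower, at -1.08 ± 0.19 (unadjusted p = 0.0012), so the 2 folate carriers again had opposite signs. Slc44a1 was higher by 0.62 ± 0.20 and Slc44a2 was lower at -0.62 ± 0.16 (unadjusted p = 0.0208 and 0.00797). Slc23a1 was higher by 0.89 ± 0.21 (unadjusted p = 0.00539). Of all 13 carriers of vitamins, choline and cofactors, 3 were higher and 2 lower.

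Slc13a2 stood at 11.68 and 11.10 in STZ+MENS, 9.93 and 9.83 in STZ, and 10.89 and 10.75 in control. The 3 groups did not overlap, with STZ+MENS highest and STZ lowest, and the difference between these was 1.50 ± 0.21 (unadjusted p = 0.000364). Slc13a3, a relative, was lower at -1.51 ± 0.61 (unadjusted p = 0.0466); leaving out the first STZ+MENS sample gave -0.58, and leaving out the other gave -2.44. Slc31a2, a copper carrier, was lower at -0.97 ± 0.17 (unadjusted p = 0.00101), while Slc31a1, the high-affinity copper uptake carrier, differed by 0.29 ± 0.14 and did not pass. Among sugar carriers 3 were higher, Slc2a5 by 0.89 ± 0.21, Slc50a1 by 0.64 ± 0.17 and Slc2a8 by 0.51 ± 0.17 (unadjusted p = 0.00467, 0.00888 and 0.0222), and 2 were lower, the myo-inositol carrier Slc5a3 at -1.28 ± 0.43 and Slc5a9 at -0.70 ± 0.26. Slc2a2 differed by -0.10 ± 0.26.

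Nucleotide sugar carriers and their relatives, all of the Slc35 family and assigned to internal membranes, had no member higher and 4 lower with MENS, of 15. Their median difference was -0.03. The 4 lower were 26.7% of the group, against 12.8% of all genes and 17.5% of the genes of the same intensity limit. In either direction the group's share was 26.7% too, against 25.4% and 36%. Slc35a3, which brings UDP-N-acetylglucosamine into the Golgi, stood at 9.01 and 9.82 in STZ+MENS, 11.54 and 10.85 in STZ, and 11.29 and 11.32 in control. Its STZ+MENS samples were lowest while STZ and control overlapped, and the difference from STZ was -1.78 ± 0.33 (unadjusted p = 0.00147). Slc35f5 was lower at -1.34 ± 0.25 (unadjusted p = 0.00168), and the CMP-sialic acid carrier Slc35a1 at -0.76 ± 0.25 (unadjusted p = 0.0224). For Slc35c2, at -0.85 ± 0.22 (unadjusted p = 0.00842), the 2 arrays of a sample differed by up to 2.38, and the difference was 0.29 on the first arrays and -1.998 on the second. Slc33a1, which brings acetyl-CoA into the endoplasmic reticulum, was lower at -1.62 ± 0.36 (unadjusted p = 0.00385), or -1.06 without STZ+MENS sample 1. In all, 13 members had arrays of a sample that differed by more than 1, up to 3.99 for Slc9a4.

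**Figure D4:**
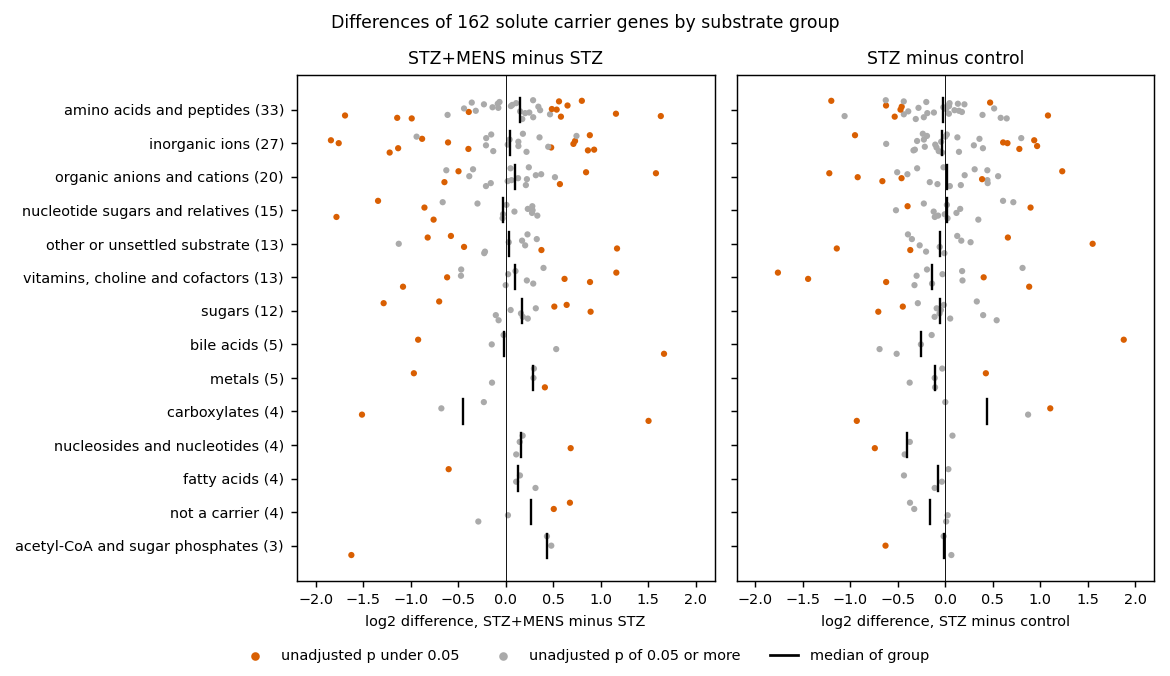
Log2 differences of the 162 genes by substrate group (number of genes in brackets), STZ+MENS minus STZ on the left and STZ minus control on the right; each point is 1 gene, coloured where its unadjusted limma p was under 0.05, and the bar is the group's median. Points lie on both sides of 0 in nearly all groups, and group medians lie between -0.45 and 0.43 in the 2 comparisons.

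STZ+MENS livers were also set against control livers, which shows where MENS-treated livers stood apart from untreated ones. At an unadjusted p under 0.05, 14 members were higher and 15 lower, against 8.82% and 9.19% of all genes. This was 17.9% of the members, against 18% of all genes and 24.1% of the genes of the same intensity limit. The share was thus near that of all genes and below that of genes of like intensity. No member passed the adjusted threshold, which 1 gene passed (0.00562%), and the smallest adjusted p of a member was 0.112, for Slc12a2. The STZ+MENS samples lay above both control samples for 39 members and below both for 38, against 25.6% and 23% of all genes. Slc1a7 was higher by 1.20 ± 0.17 (unadjusted p = 0.000384) and Slc12a2 lower at -1.26 ± 0.19 (unadjusted p = 0.000579), and between STZ and control neither passed, at 0.04 ± 0.17 and -0.03 ± 0.19. Slc17a5 was lower than control at -0.81 ± 0.13 in STZ+MENS and stood at -0.17 ± 0.13 in STZ. For Slc35a3 these differences were -1.89 ± 0.33 and -0.11 ± 0.33, for Slc33a1 -1.56 ± 0.36 and 0.06 ± 0.36, and for Slc50a1 0.63 ± 0.17 and -0.02 ± 0.17. None of the 4 passed an unadjusted p of 0.05 between STZ and control. Without STZ+MENS sample 1 the Slc33a1 difference from control was -0.997.

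Other members stood apart from control in both STZ groups, which share the control samples. Slc47a1 was higher than control by 0.73 ± 0.16 in STZ+MENS and by 1.23 ± 0.16 in STZ. Slc24a6 was higher by 1.10 ± 0.29 and 0.97 ± 0.29, or 0.67 and 0.54 without control sample 1, and Slc22a18 by 0.61 ± 0.14 and 0.39 ± 0.14. Slc22a12 was lower, at -0.64 ± 0.16 in STZ+MENS and -0.66 ± 0.16 in STZ, and the STZ+MENS minus STZ difference was 0.02 ± 0.16. Slc44a1 was lower, at -0.83 ± 0.20 and -1.45 ± 0.20, or -0.40 and -0.82 as the mean of its probes. Slco1a4 was higher by 0.96 ± 0.30 in STZ+MENS, or by 0.50 without STZ+MENS sample 2, and by 1.88 ± 0.30 in STZ. Slc41a2, at -1.10 ± 0.27, and Slc4a4, at -0.90 ± 0.25, were below control in STZ+MENS and above it in STZ, by 0.65 ± 0.27 and 0.93 ± 0.25. The Slc41a2 difference between STZ and control was 0.30 without control sample 2 and 1.004 without control sample 1. By contrast, the lysosomal amino acid sensor Slc38a9 was higher than control in STZ+MENS by 0.49 ± 0.14 (unadjusted p = 0.0122) and stood at 0.01 ± 0.14 in STZ. The creatine carrier Slc16a12 was lower in STZ+MENS at -0.50 ± 0.13 (unadjusted p = 0.00842) and stood at -0.06 ± 0.13 in STZ.

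A panel of carriers known from hepatocytes was read whatever its result. Of these, 17 were members, and Slco2b1 and Slc16a1 fell below the intensity limit at means of 379.9 and 301.6. Between STZ and control, 2 of the 17 were lower (Slc22a7 and Slc29a1) and 3 higher (Slco1a4, Slc7a2 and Slc13a5) at an unadjusted p under 0.05, beside 17% of all genes and 19.6% of those of the same intensity limit in either direction. Between STZ+MENS and STZ, 3 were higher (Slc10a1, Slc22a7 and Slc29a1) and 4 lower (Slco1a4, Slc27a5, Slc38a2 and Slc16a10), beside 25.4% and 36% of these genes. With only the second probe of Slc10a1 in place of its brightest, 2 were higher and 5 lower. The Slc29a1 difference was 0.68 ± 0.22 (unadjusted p = 0.0203), and 0.40 without STZ sample 2 (unadjusted p = 0.113). Slc27a5, which activates bile acids and fatty acids, was lower at -0.60 ± 0.22 and, without STZ+MENS sample 1, at -0.31. The members Slc2a2, Slco1a1, Slco1b2, Slc27a2, Slc38a3, Slc38a4, Slc40a1 and Slc3a2 passed an unadjusted p of 0.05 in neither comparison at their brightest probes, with differences between -0.39 and 0.40. Slco1a1 and Slc3a2 did pass at their second, dimmer probes. Between STZ+MENS and STZ these differed by -0.72 ± 0.15 (unadjusted p = 0.00245) and 0.81 ± 0.20 (unadjusted p = 0.00658). Between STZ and control the second Slc3a2 probe differed by -0.92 ± 0.20 (unadjusted p = 0.00355). The panel counts thus depend on the probe.

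**Figure D5:**
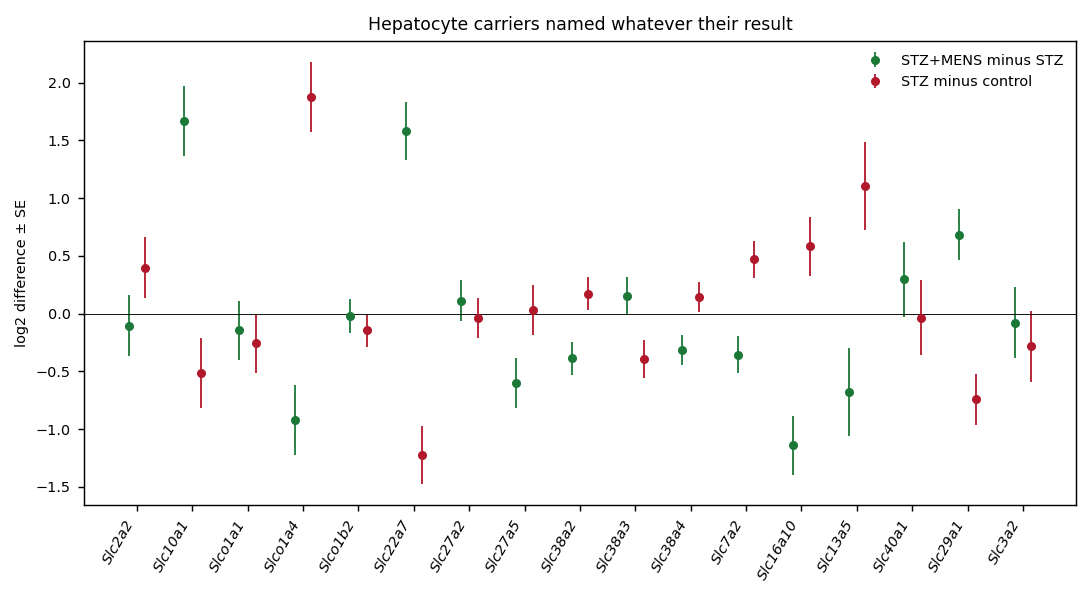
Log2 differences with standard errors of the limma fit for the 17 panel carriers that were members, STZ+MENS minus STZ and STZ minus control. Slco1a4 lies at -0.92 and 1.88 and Slc22a7 at 1.58 and -1.22 in these comparisons, while Slc2a2, Slco1b2 and Slc27a2 lie within 0.40 of 0 in both.

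Several members are neighbours in the genome, with 14 pairs having at most 3 genes between them and 8 pairs none, by the order of genes in RefSeq. Slc46a1 and Slc13a2, whose promoters are printed above, are adjacent on chromosome 11, are read away from each other and start 43.5 kb apart. In STZ minus control they differed by -1.76 ± 0.21 and -0.93 ± 0.21, and in STZ+MENS minus STZ by 1.17 ± 0.21 and 1.50 ± 0.21. On chromosome 6, Slco1a4 lies next to Slco1a1 and is separated by 1 gene from Slco1b2, and of these only Slco1a4 passed an unadjusted p of 0.05 for STZ against control, at 1.88 ± 0.30 beside -0.26 ± 0.26 and -0.15 ± 0.15. The copper carriers Slc31a2 and Slc31a1 are separated by 1 gene and differed by -0.97 ± 0.17 and 0.29 ± 0.14 between STZ+MENS and STZ. Slc41a1 and Slc45a3, with 2 genes between them, had opposite signs in both comparisons. The fructose carrier Slc2a5 differed by -0.71 ± 0.21 in STZ against control, and its neighbour Slc2a7 by -0.09 ± 0.15.

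Partners and regulators of carriers, 23 genes that are no members, were read beside them, and 20 were measured, all 20 at an intensity of 1000 or more. None passed the adjusted threshold in any comparison. At an unadjusted p under 0.05, 4 were higher and 2 lower in STZ than in control, beside 8.47% and 8.5% of all genes. Nr0b2, a nuclear receptor without a DNA-binding domain that represses bile acid synthesis, stood at 13.32 and 14.06 in STZ+MENS, 13.89 and 14.30 in STZ, and 12.76 and 12.52 in control. It was higher in STZ by 1.46 ± 0.28 (unadjusted p = 0.00187). Abcc3, an ATP-driven exporter of organic anions at the blood side, was higher by 0.83 ± 0.24 (unadjusted p = 0.0126). The bile acid receptor Nr1h4 was lower, at -0.46 ± 0.16 (unadjusted p = 0.0267).

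Between STZ+MENS and STZ, 2 of the 20 partners were higher and 3 lower, beside 25.4% of all genes and 36% of those of the same intensity limit in either direction, which is no more than these backgrounds. Pdzk1, a scaffold that holds carriers at the membrane, stood at 13.50 and 13.75 in STZ+MENS, 14.77 and 14.70 in STZ, and 14.58 and 14.57 in control. The STZ+MENS samples were lowest, at -1.11 ± 0.15 from STZ (unadjusted p = 0.000246). Abcb11, the bile salt export pump, was lower at -1.51 ± 0.27 (unadjusted p = 0.00121), and Nr1h4 was higher by 0.75 ± 0.16 (unadjusted p = 0.0029). Slc9a3r1, an adaptor that binds carriers as Pdzk1 does and that entered the set by its symbol, was higher by 0.51 ± 0.14 (unadjusted p = 0.0111).

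The intensity limit bears on a few of the named genes. Of the 162 members, 135 were at 1000 or more in all 6 samples. The group mean was under 1000 in at least 1 group for 17, of which 13 reached the limit in 2 groups and 4 in 1. Among those whose differences are given above, Slc13a2, Slc7a5 and Slc10a2 were under it in STZ, and Slc41a2, Slc35a3, Slc33a1 and Slc5a3 in STZ+MENS. These genes entered through the groups in which they were brighter.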

How the data were processed

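Liver RNA of 6 samples in 3 groups was measured on 12 single-colour Phalanx Mouse OneArray arrays. The authors' deposited values are linear probe intensities. Array medians of 768.89 to 770.33 and sorted values that span at most 6.3% of their mean (leaving out the 1000 lowest) are the form quantile normalization leaves, and 44 to 52 of 26423 probes per array lay below 0. The sources used here do not give the background or normalization steps. Per the submitters' processing notes limma 3.30.7 was used, without a stated role. The 2 samples per group limit the precision.

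Values below 0 were set to 0, 50 was added and log2 was taken, which leaves differences of these genes nearly unshrunken. Probes were named from the platform annotation: 20377 had 1 symbol, 0 several, and 6046 were unnamed. The brightest probe stood for each of 17778 symbols, which chose between probes for 21 members. Of the members, 161 carry a current symbol. Log2 values of both arrays of each sample were averaged. limma 3.58.1 in R 4.3.3, with the package data.table (version 1.17.8) for reading, fitted 1 mean per group to all 6 samples, with 3 residual and 3.19 prior degrees of freedom. Tests were two-sided, with Benjamini-Hochberg adjustment over all genes and a threshold of 0.05. Unadjusted p values are descriptions. With 2 samples against 2, exact permutation cannot give a p below 0.33 and was left out. The fit was tested on simulated data. Tables, sequences and plots were made with Python 3.11.15.

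The named genes are, per comparison, up to 8 members higher and 8 lower by smallest p without overlap of samples, a panel of hepatocyte carriers (1 of which is not reported here), the 2 brightest members of a substrate group, members of the same family or group, the genes around the intensity limit and partner genes. The members, substrate groups, lists and tests were chosen with earlier results of these data known. Promoter sequences come from RefSeq (GRCm38.p6), and members were matched to them by symbol. Alternatives changed the offset, the filter, the probe, the samples, the arrays, the centring, the block and the variance prior.

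The source labels count the samples of every group in the same way. Numbers in the sample titles are shared by control and STZ+MENS but not by STZ. Deviations from the group means of samples with the same count correlated at 0.005, -0.031 and -0.070 over genes, so the counts were not taken as pairs.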

Additional observations from a re-analysis of the deposited data

How the results depend on the processing

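No member passed the adjusted threshold of 0.05 in any comparison in the main setting, and this depended on the genes and units tested. With only genes of mean intensity 1000 or more, 1 member passed for STZ against control and 13 for STZ+MENS against STZ. Some of these 13 met that filter only through the groups in which they were brighter, as named above. With STZ and control fitted alone, 4 passed (Slco1a4, Slc47a1, Slc46a1 and Slc44a1, adjusted p from 0.0198 to 0.0384), beside 1.05% of all genes. For STZ against control, leaving out either STZ+MENS sample amounts to this same fit and is no separate result. With arrays as units and the sample as a random block, which counts 12 arrays in place of 6 samples, 49 passed for STZ+MENS against STZ (17.3% of all genes), 16 for STZ+MENS against control (7.54%) and 19 for STZ against control (6.8%). Leaving out 1 sample, this count ranged from 0 to 30 for STZ+MENS against STZ, reaching 30 without STZ+MENS sample 2 (9.96% of all genes), was 0 in all cases for STZ+MENS against control, and ranged from 0 to 4 for STZ against control, reaching 4 without either STZ+MENS sample.

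At an unadjusted p under 0.05, leaving out 1 sample gave 14 to 33 members higher and 19 to 35 lower for STZ+MENS against STZ, with both lowest counts without STZ sample 1. It gave 8 to 25 higher and 10 to 25 lower for STZ+MENS against control. For STZ against control it gave 9 to 23 higher and 14 to 26 lower. The first array of each sample alone gave 10 members higher for STZ against control, and arrays as units gave 23 lower for STZ+MENS against control. Of 1638 values of 91 named differences under these settings, 1637 kept their direction. The exception was Slc35c2, STZ+MENS against STZ, at 0.29 on first arrays, and the cause was not tested. That count was largely fixed in advance. Changing the filter, the groups fitted, the block or the variance prior leaves the difference itself unchanged. Where the samples of the compared groups do not overlap, leaving out 1 sample cannot turn the sign. The second probe of Slc10a1, which went the other way, was not a setting of its own. Of the 91 differences, 29 moved by over 1.5 times in some setting, 25 of them when 1 sample was left out.

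With the sample number as a replicate block, 32 members were higher and 30 lower for STZ+MENS against STZ, 14 and 16 for STZ+MENS against control, and 17 and 18 for STZ against control, and 0 passed the adjusted threshold, as without the block. A minimum intensity of 500 gave 197 members, 2000 gave 117, and the mean over all probes of a gene 159. Centring each sample moved the median of all genes by at most 0.01. Each group holds 2 samples, and the deposited values carry no detection flags or background levels.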
